A study of Rattus norvegicus with 6 samples.

Results

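The cytosolic ribosomal proteins are the protein subunits of the ribosome that translates nuclear-encoded messages. Their genes were taken from the probe annotation of a rat expression array by name, as every non-control spot whose gene name begins with Rpl or Rps and a number, together with Rplp0, Rplp1, Rplp2 and Rpsa, and without the S6 kinase names. This gave 86 of the 26456 gene names in the files, 149 of 30367 probes and 167 of 42877 spots per array. Of the 86 names, 32 belong to the small subunit and 51 to the large subunit. A further 2 names, Rpl27-ps1 and Rps2-ps7, are pseudogenes in the RefSeq table and are given apart. The last name, Rps19bp1, encodes a protein that binds Rps19 and is not itself a ribosomal protein.

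Total RNA of left ventricle was hybridised to 1-colour arrays, with 1 array for each of 6 male rats. OLETF is an inbred rat strain that becomes obese and develops type 2 diabetes, and its 3 rats were 27, 28 and 27 weeks old. LETO is the lean, non-diabetic control strain, and its 3 rats were 27, 28 and 28 weeks old. The labels name no treatment. They describe 3 independent experiments per strain, and the p-values measure the spread between those samples. Strain and diabetes cannot be told apart in this design.

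A ribosome pairs a small subunit, which holds the message and reads its codons, with a large subunit, which joins the amino acids. Each subunit is a scaffold of ribosomal RNA with many different proteins, mostly present in a single copy, so the genes for these proteins are usually expressed at matched levels. Most of their messages begin with a terminal oligopyrimidine (TOP) tract, a short run of C and T bases through which their translation responds to mTORC1 signalling, a growth and nutrient pathway that also governs protein synthesis in the heart muscle cell.

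Values are log2 of the background-subtracted spot signal after subtraction of the array's own 75th percentile, so that a value of 0 is the signal at that percentile. The 75th percentile lay between 1271 and 1827 intensity units, between 75.5% and 79.8% of spots were well above background, and 0 spots were saturated. OLETF 2 and OLETF 3 were hybridised on a slide of their own, while OLETF 1 shared its slide with every LETO array, so that slide was partly mixed with strain. LETO 1 stood apart from the other arrays on the second principal component of all genes, which held 23.8% of the variance. Cardiomyocyte markers were measured in 10 of 10 cases, and their summed signal, as a multiple of the 75th percentile, lay between 2382 and 2656 in LETO and between 2220 and 2678 in OLETF. Lymphocyte markers summed to between 2.88 and 3.53 in LETO and between 2.04 and 2.23 in OLETF. Of their 9 tested members 2 were called lower, against 1.05% of all genes. Red cell markers summed to between 6.75 and 27.5 in LETO and between 7.07 and 8.54 in OLETF. Of their 4 tested members 1 was called, Slc4a1, which was 3.19 higher in OLETF, against 1.5% of all genes called higher. The other 3 members had negative differences, and the median of the list was −1.45. Smooth muscle markers summed to between 8.80 and 11.5 in LETO and between 8.01 and 8.46 in OLETF, and macrophage markers to between 9.34 and 11.9 and between 12.1 and 12.8, with 0 members called in either list. Fibroblast markers summed to between 63.5 and 83.8 in LETO and between 79.9 and 92.1 in OLETF. For atrial markers the sums were 147 to 182 and 131 to 150, and for endothelial markers 39.2 to 42.7 and 39.9 to 44.2. In these lists 0 members were called. Mast cell and neutrophil markers summed to between 0.44 and 0.69 in LETO and between 0.47 and 0.63 in OLETF, with 1 of 5 called higher. The part of these cells in the ribosomal protein values was not tested.

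A run of pyrimidines was more frequent at the annotated starts of these genes than at those of all genes, although most lacked it at that exact base. Of the 83 genes, 66 were found by symbol in the RefSeq promoter table of the GRCr8 build. A single entry was used for each gene, the one with the lowest coordinate where there were several, so other starts were not searched. A C followed by 4 bases that are each C or T stood at this start in 24 of the 66, or 36.4%, against 2.63% of all 27457 genes in that table. When the run was allowed to begin within 10 bases on either side of the start, 74.2% of the 66 and 28.7% of all genes in the table held one. Only the strand of the gene was searched. Shown here as examples are 30 bases around the start of 3 genes with the run and of the 2 genes with the lowest differences in OLETF, which lack it at that base. Rps16, Rpl7l1 and Rpl6, which are among the 5 highest differences, also lack it there. The run is in capitals, and the first capital is the annotated start.
Rplp0: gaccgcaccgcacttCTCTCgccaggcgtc
Rps7: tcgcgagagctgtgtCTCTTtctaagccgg
Rpl22: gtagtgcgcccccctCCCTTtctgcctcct
Rpl3: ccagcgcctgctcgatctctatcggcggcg
Rpl13a: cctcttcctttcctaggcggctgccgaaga
The 300-base promoter entries from which these windows come lie at chr12:46718341-46718640 on the minus strand for Rplp0, chr6:50999396-50999695 on the minus strand for Rps7 and chr5:168117711-168118010 on the plus strand for Rpl22. Those of Rpl3 and Rpl13a lie at chr7:113507941-113508240 and chr1:104748864-104749163, both on the minus strand. The strain difference had a median of −0.03 over the 24 genes with the run at the start and of −0.05 over the 42 without it.

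Across the ribosomal protein genes the 2 strains were close to each other. In the limma fit over 18816 genes, 0 of 83 were higher and 0 of 83 were lower in OLETF at an adjusted p of 0.05, where 1.5% of all genes tested were called higher and 1.05% lower. At an unadjusted p of 0.05 the count was 1 of 83, which was Rpl8, against 12.4% of all genes. That count was 16 without LETO 1 and 29 with array quality weights, and 1 without any other single array. Both of the former settings reduce the part of LETO 1, whose array weight was 0.20. The share of all genes at this threshold was not counted in them, so 12.4% is not their background. Adjusted calls over all genes, 283 higher and 197 lower, became 374 and 241 without LETO 1. With the weights they became 875 and 825. In the main fit the median difference of OLETF minus LETO was −0.05 on the log2 scale, with the quartiles at −0.08 and −0.01. The median over all genes tested was −0.01. In bulk tissue fewer cells of a type and less RNA per cell cannot be told apart. The median standard error of a member was 0.12, against 0.12 over all genes. A 95% interval that lay wholly within 1.5-fold in either direction was found for 82 of 83 members, or 98.8%, against 77.3% of all genes. Leaving Rpl8 aside, the widest limits of these intervals were −0.49 and 0.38.

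**Figure D1:**
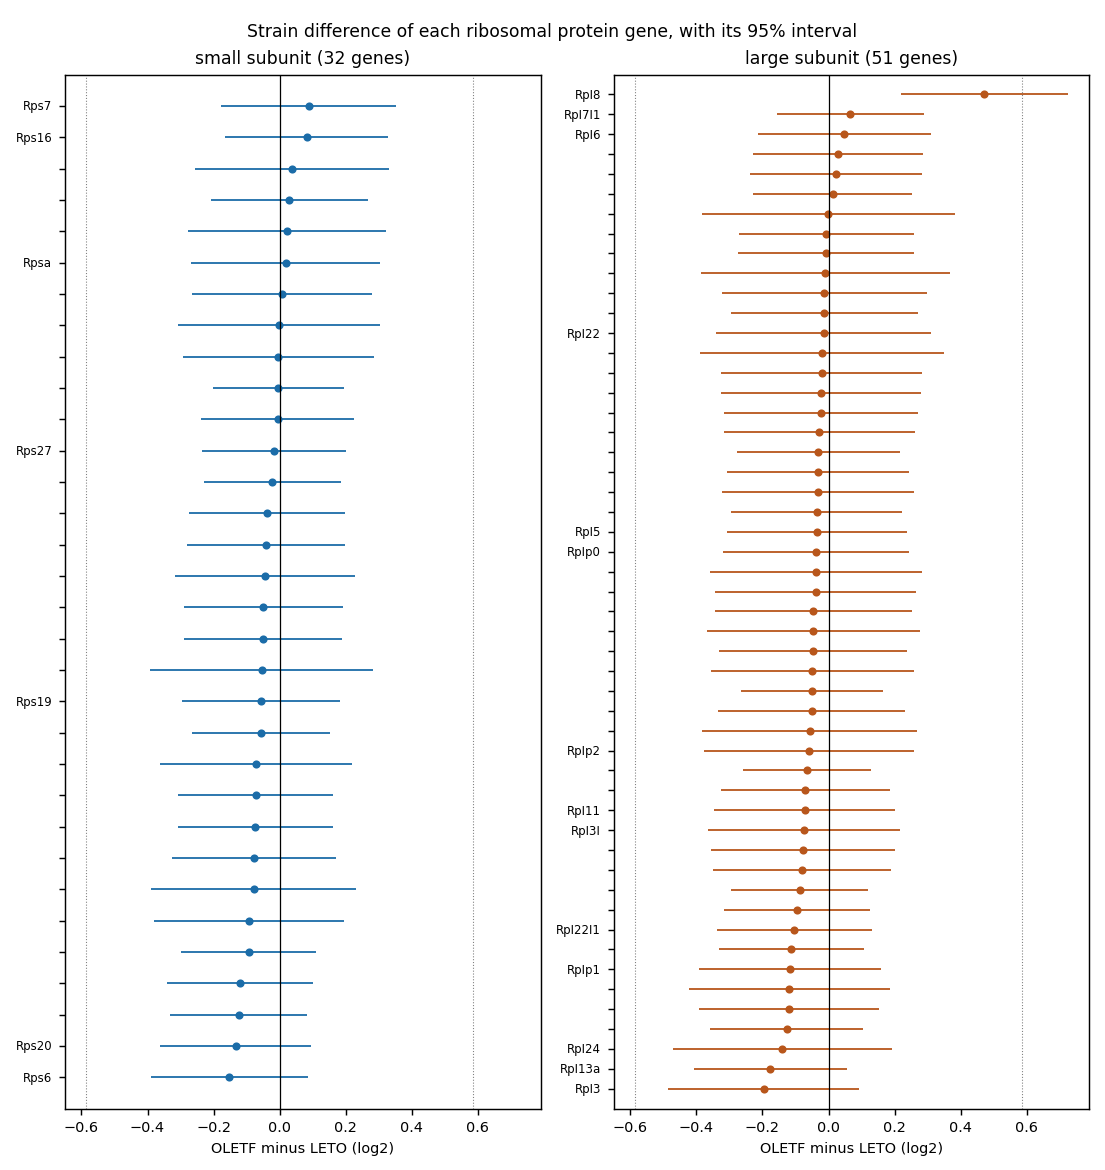
Difference of OLETF minus LETO on the log2 scale (horizontal axis) for the 32 small-subunit genes (left) and the 51 large-subunit genes (right), with the 95% interval of the limma fit as a line and 1.5-fold in either direction as dotted lines; some of the genes named in the text are labelled. Each interval except that of Rpl8 lies within the dotted lines, and 70 of the 83 points lie below 0.

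The sign of the difference was negative in 70 of the 83 genes, compared with 52.4% of all genes tested. It was negative in 25 of 32 small-subunit genes, with a median of −0.05, and in 45 of 51 large-subunit genes, with a median of −0.04. The genes moved together, with a median correlation between pairs of 0.85 over the 6 arrays, so the 83 signs are not separate observations. Both the size and the direction of the lean depended on the model, the scaling and single arrays. Of the 83, 63 were negative with median scaling, 62 with the deposited value table and 80 with array quality weights, where the median was −0.15. These weights were 0.20 for LETO 1 and between 0.73 and 3.00 for the other arrays. The weighted fit is therefore not independent of the fit without LETO 1. After quantile normalization 44 of 83 were negative, with a median of −0.0021. The count was again 44 of 83 when slide entered as a block. Without LETO 1 the count was 80 of 83 with a median of −0.15, and without OLETF 1 or OLETF 2 it was 70 or 72, whereas without LETO 2, LETO 3 or OLETF 3 it was 38, 39 or 41 of 83, each time with a median above 0. With age as a covariate 32 of 83 were negative and the median was 0.02.

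The members shared a pattern across rats that did not follow strain. Taking each gene's deviation from its own mean over the 6 arrays, the median over the 83 genes was −0.19 in LETO 1, 0.14 in LETO 2 and 0.11 in LETO 3. In OLETF the medians were 0.02, 0.02 and −0.10. The LETO arrays thus held both the lowest and the highest values of the family, and all OLETF arrays lay between them. Over all genes tested the same medians lay between −0.02 and 0.02.

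LETO 1 was the lowest of the 3 LETO arrays for 80 of the 83 genes, or 96.4%, compared with 44.2% of all genes. It was the lowest of all 6 arrays for 60 of the 83, or 72.3%, compared with 28.7% of all genes. Rpl3 was among the exceptions. For this gene, which lies close to the centre where peptide bonds are made, LETO 1 was the highest array of all, at 4.45. The nuclear-encoded proteins of the mitochondrial ribosome, which translates only the mitochondrial genome, had a median deviation of −0.14 in LETO 1 and between −0.04 and 0.06 elsewhere. LETO 1 was the lowest LETO array for 54 of 69 of these genes, or 78.3%, and the lowest of all 6 arrays for 42, or 60.9%.

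The standard deviation between rats had a median of 0.17 in LETO and 0.07 in OLETF over the ribosomal protein genes, and it was larger in LETO for 73 of 83, or 88.0%. Over all genes the medians were 0.15 and 0.10, and it was larger in LETO for 63.7%. Over the mitochondrial ribosomal proteins the medians were 0.12 and 0.06, and it was larger in LETO for 50 of 69, or 72.5%. In the cytosolic family quantile normalization narrowed the pattern without removing it. The median deviation was then −0.12 in LETO 1 and 0.05 in LETO 2 and LETO 3. LETO 1 was also the array that lay apart over all genes, and without it the family median in OLETF minus LETO was −0.15, as given above.

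**Figure D2:**
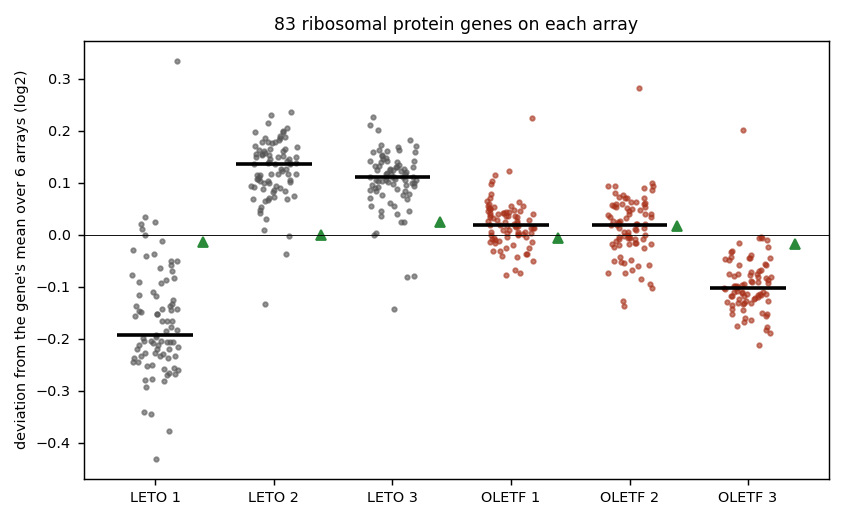
Deviation of each of the 83 ribosomal protein genes from its own mean over the 6 arrays, in log2 units (vertical axis), by array, with LETO in grey and OLETF in red. The black bar is the median of the 83 genes and the green triangle the median of all 18816 genes. The bar lies at −0.19 in LETO 1 and at 0.14 in LETO 2. The triangles stay between −0.02 and 0.02, where the scaling largely holds them.

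Among the small-subunit proteins Rps6, the substrate of the S6 kinases, read 5.51, 5.70 and 5.71 in LETO and 5.60, 5.46 and 5.40 in OLETF. The strains overlapped, and the difference was −0.15 ± 0.10 (SE, n = 3 per strain, adjusted p = 0.678 by limma). Rpsa, which is also known as a laminin receptor, differed by 0.02 with a 95% interval from −0.27 to 0.30. The gene mutated most often in Diamond-Blackfan anaemia, a failure of red cell production, is Rps19, and it differed by −0.06 with an interval from −0.30 to 0.18.

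Rps24, another gene mutated in that anaemia, was the single member that lay lower in all OLETF rats than in any LETO rat, at 5.92, 6.02 and 5.97 in LETO and 5.90, 5.90 and 5.74 in OLETF. Its difference was −0.12 ± 0.09 with an adjusted p of 0.716. Groups without overlap were found in this direction for 8.43% of all genes, and in the other for 8.92%, where Rpl8 was the single member. Over the 9 genes listed for that anaemia 0 were called, where 1.5% of all genes were called higher and 1.05% lower, and the median was −0.05. Rps7, with the second highest difference of all members, read 5.12, 5.47 and 5.41 in LETO and 5.46, 5.43 and 5.37 in OLETF, so that only LETO 1 lay below the OLETF range. The difference was 0.09 ± 0.11. Rps20 differed by −0.13 and Rps27, a small zinc-finger protein, by −0.02. Of 4 genes that line the message channel 0 were called, against the same 1.5% and 1.05% of all genes, and their median was 0.01. Some parts of the small subunit carry other names. Fau, a fusion gene that encodes the small-subunit protein Rps30, differed by 0.01, and Gnb2l1, the scaffold protein RACK1, by less than 0.01 in size.

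Among the large-subunit proteins the stalk that recruits elongation factors is built of Rplp0, Rplp1 and Rplp2 on a base of Rpl12. Rplp0 is also widely used as a reference gene in PCR, and it read 7.27, 7.56 and 7.47 in LETO and 7.47, 7.49 and 7.22 in OLETF. The strains overlapped, with a difference of −0.04 and a 95% interval from −0.32 to 0.24. Rplp1 differed by −0.12 and Rplp2 by −0.06, and the median over the 4 stalk genes was −0.09. Over 5 members that serve as common reference genes the differences lay between −0.18 and −0.03. Of these 0 were called, where 1.5% of all genes were called higher and 1.05% lower. Rpl13a, the lowest of these, read 6.73, 6.94 and 6.95 in LETO and 6.71, 6.76 and 6.63 in OLETF. LETO 1 lay within the OLETF range, and the difference was −0.18 with an interval from −0.41 to 0.05.

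Rpl5 and Rpl11, which carry the smallest ribosomal RNA of the large subunit and can bind the p53 regulator Mdm2, differed by −0.04 and −0.07. The 7 proteins around the exit of the peptide tunnel had a median of −0.02. Rpl6 differed by 0.05 and Rpl24 by −0.14. All of these intervals included 0 and lay within 1.5-fold.

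Rpl3 had the lowest difference of all ribosomal protein genes, at 4.45, 4.15 and 4.03 in LETO and 4.08, 3.97 and 3.98 in OLETF. LETO 3 lay within the OLETF range, and the difference was −0.20 ± 0.12 with an adjusted p of 0.648. Its paralog Rpl3l, which is made in heart and skeletal muscle, read 4.05, 4.40 and 4.44 in LETO and 4.26, 4.25 and 4.14 in OLETF. The difference of Rpl3l was −0.08 with an interval from −0.37 to 0.22, and LETO 1, which was the highest array for Rpl3, was the lowest for Rpl3l. Rpl22 and its paralog Rpl22l1 differed by −0.01 and −0.10. Rpl7l1, a paralog of Rpl7, differed by 0.07. Over the 7 measured paralogs, which are among the 83 genes, 0 were called, where 1.5% of all genes were called higher and 1.05% lower.

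Rpl8, which contacts the catalytic centre of the large subunit, was the exception among the ribosomal protein genes. Its brighter probe lies at chr7:114956280-114956339 in the rn4 build and begins at base 785 of the transcript. It read 5.72, 6.02 and 6.01 in LETO (mean 5.91 ± 0.17, SD, n = 3) and 6.37, 6.43 and 6.35 in OLETF (6.38 ± 0.04, SD, n = 3). All OLETF rats lay above all LETO rats. The difference was 0.47 ± 0.11 with a 95% interval from 0.22 to 0.72 and an adjusted p of 0.0828 by limma, so Rpl8 missed the threshold. It passed with quantile normalization (adjusted p = 0.0349), normexp followed by quantile normalization (0.0117), trended and robust moderation (0.0490) and array quality weights (0.0170). Over all alternatives the adjusted p lay between 0.0117 and 0.557, the latter with slide as a block, where the difference was 0.46. The second probe of Rpl8 begins at base 686 of the transcript and is placed by the files at chr1:185923809-185923868. It read 5.04, 5.10 and 5.15 in LETO and 5.26, 5.23 and 5.15 in OLETF, with a difference of 0.12 ± 0.08.

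The start of the brighter Rpl8 probe recurs on other probes of the array. Shown are its first 30 bases and the last 30 of 2 probes that carry no gene symbol, with the run that each shares with Rpl8 in capitals. In the first line the capitals mark the run of 24 bases shared with the chromosome 14 probe, and the chromosome 1 probe shares the first 15 of these.
Rpl8 probe: ACTGTACAGGAGAAGGAGAACTAGagttca
chromosome 14 probe: accaaaACTGTACAGGAGAAGGAGAACTAG
chromosome 1 probe: ggaaccaaaACTGTACAGGAGAAGaactag
The chromosome 14 probe lies at chr14:19214793-19214852 and differed by 0.11, and the chromosome 1 probe lies at chr1:185923749-185923808 and differed by 0.13. Neither reached the 0.47 of the Rpl8 probe. Near Rpl8 on chromosome 7, Commd5 differed by 0.14 and Zfp7 by 0.43 (adjusted p = 0.306 by limma). Ribosomal protein genes have many processed copies in rodent genomes, and a probe that matches several copies reads their sum.

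The probes themselves gave 1 call that the choice of the brightest probe per gene had hidden, and it was singled out after the values were seen. Of 145 tested probes of ribosomal protein genes, 0 were higher and 1 was lower in OLETF at an adjusted p of 0.05, where 1.48% of 21484 probes were called higher and 1.07% lower, and 2 had an unadjusted p below 0.05, against 12.6% of all probes. That probe belongs to Rps16, a small-subunit protein near the decoding site. It lies at chr1:83463520-83463579, begins at base 746 of the transcript and read 1.97, 1.93 and 1.91 in LETO and 0.25, 0.41 and 0.26 in OLETF. The strains were far apart relative to the spread between rats, and the signal fell by 1.63 on the log2 scale, ± 0.09, with an adjusted p of 0.000263 by limma over all probes. The brighter probe of Rps16 lies 300 bases upstream, at chr1:83463220-83463279 and base 446 of the same transcript. It read 5.32, 5.60 and 5.53 in LETO and 5.64, 5.53 and 5.52 in OLETF, with a difference of 0.08 and an interval from −0.16 to 0.33.

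The first 30 bases of both Rps16 probes are shown because they report on 1 annotated transcript and differ in their strain difference.
Rps16, upstream probe: tcgctgtgaatccaaaaagtttggtggtcc
Rps16, downstream probe: aagagctgtgcctgcttctgcttcaccagt
No other probe of the array shares a run of 14 bases with either of them. The downstream probe was called lower in OLETF in every alternative fitted over probes, with the highest adjusted p, 0.00957, for slide as a block. Without any 1 array its difference lay between −1.68 and −1.60. Further along the chromosome Plekhg2 differed by −0.11 and Zfp36 by −1.40, the latter with a standard deviation of 1.26 in LETO and an adjusted p of 0.425 by limma.

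For most other genes the probes gave like differences. Of 47 genes with more than 1 tested probe, 42 had differences within 0.1 of each other, and the median range was 0.03. Beyond Rps16, with a range of 1.71, and Rpl8, with 0.35, the widest was Rps12, whose probes differed by −0.26 and −0.07. Rpl37a and Rpl36a followed with ranges of 0.14 and 0.11. Probes printed in 10 spots show the technical error within an array. The standard deviation of these spots lay between 0.03 and 0.07 for Rpl15 and between 0.05 and 0.06 for Rps4x, against a median between rats of 0.17 in LETO and 0.07 in OLETF, so that in OLETF the spread between rats was about as large as the highest of these technical values.

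The pseudogene names behaved differently from each other. Rpl27-ps1 is a copy of Rpl27, a large-subunit gene, and its probe at chr8:108938435-108938494 read −3.06, −3.03 and −2.88 in LETO and −6.09, −7.13 and −6.93 in OLETF. It was called well above background in 3 of 3 LETO rats and in 0 of 3 OLETF rats, so the OLETF values are only a bound. The probe passed the filter through LETO alone. As a rough bound its signal was 8.43-fold lower in OLETF. This sets the LETO mean against the lowest signal well above background on each OLETF array, or the probe's own signal where that is higher. That lowest signal is taken over all probes and is not a detection limit, so the true fold may be smaller. The probe of Rps19bp1, for example, read up to −5.37 and was well above background on only 1 of the 6 arrays. The fit gave an adjusted p of 0.000831 by limma, which rests on those OLETF values, as do the measured differences of −3.73 and, with normexp and quantile normalization, −1.23. Rpl27 itself read 5.35, 5.80 and 5.79 in LETO and 5.63, 5.61 and 5.53 in OLETF. Its probes differed by −0.06 and −0.09. Rps2-ps7, a copy of the small-subunit gene Rps2, was above background on all 6 arrays and read 2.79, 2.70 and 2.86 in LETO and 2.83, 2.80 and 2.87 in OLETF. The strains overlapped, with a difference of 0.05 and an interval from −0.15 to 0.25, and Rps2 differed by 0.03. The probe sequences of both pseudogenes are given whole because these bases define what was measured.
Rpl27-ps1: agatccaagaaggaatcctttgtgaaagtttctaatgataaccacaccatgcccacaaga
Rps2-ps7: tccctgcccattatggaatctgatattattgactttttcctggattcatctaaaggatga

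**Figure D3:**
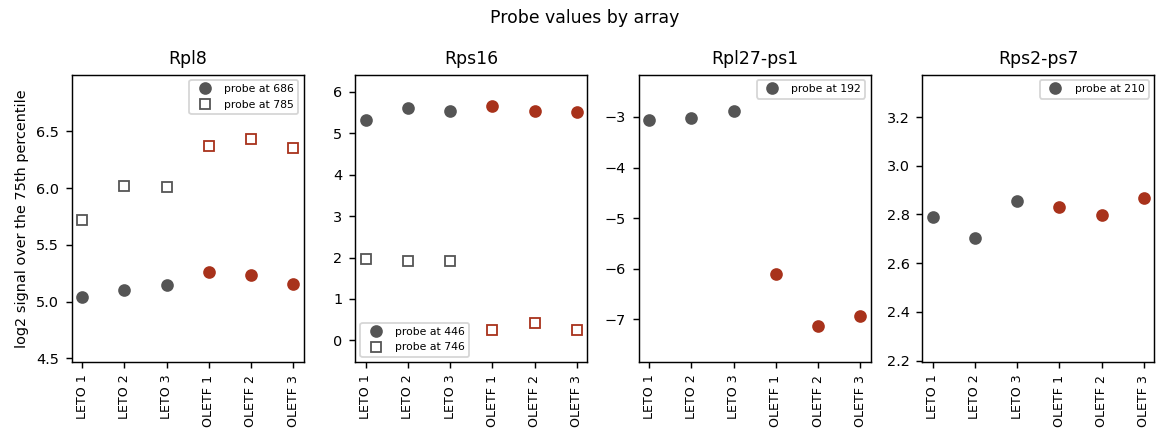
Probe values by array for Rpl8, Rps16, Rpl27-ps1 and Rps2-ps7, as log2 signal over the array's 75th percentile (vertical axes, each with its own scale), with LETO in grey, OLETF in red and the legend giving the base of the transcript where each probe begins. The downstream Rps16 probe lies near 1.9 in LETO and at or below 0.41 in OLETF while the upstream probe overlaps, and the OLETF values of Rpl27-ps1 were not well above background.

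The array also holds 195 probes whose description names a ribosomal protein but whose gene name is outside the family, mostly predicted copies. Of 178 tested probes, 1 was higher and 0 were lower in OLETF, where 1.48% of all probes were called higher and 1.07% lower. At an unadjusted p of 0.05 the count was 8 of 178, against 12.6% of all probes. The median difference was −0.03. The called probe, LOC363746, is described as similar to Rps7 and lies at chr11:31487954-31488013. It read −5.04, −4.79 and −5.38 in LETO and −2.43, −2.07 and −2.26 in OLETF. The difference was 2.82 ± 0.17 with an adjusted p of 0.000406 by limma over all probes. Probes on chromosomes 8 and 15 that are also described as similar to Rps7 went the other way. They differed by −0.43 and −0.26 and were not called (adjusted p = 0.143 and 0.256 by limma). Rps7 itself differed by 0.09.

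Genes that act with the ribosome were counted beside its proteins. Of 17 other genes with TOP messages 0 were called, 15 were negative and the median was −0.05, with the smallest p for Gas5, a host of small nucleolar RNAs, at −0.24 (adjusted p = 0.438 by limma), followed by Naca, which guards nascent chains, at −0.17. Of 35 initiation factors 0 were called. Among them Eif2b1, a subunit of the exchange factor that recharges eIF2, read −2.53, −2.50 and −2.42 in LETO and −2.89, −3.02 and −2.87 in OLETF, a difference of −0.44 that missed the threshold (adjusted p = 0.0528 by limma). Eif1, which helps to choose the start codon, differed by −0.26. Of 11 elongation and release factors 0 were called, with Eef1a1 at −0.19 and Eef2 at −0.11. Of 14 genes of RNA polymerase I, the enzyme that makes ribosomal RNA, 0 were called, with Polr1b at −0.16 and Taf1c at −0.14. Over all genes tested 1.5% were called higher and 1.05% lower. At an unadjusted p of 0.05 the counts in these 4 lists were 0, 2, 0 and 0, against 12.4% of all genes.

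Single genes passed in 3 further lists, and over all genes tested 1.5% were called higher and 1.05% lower. Of 37 ribosome biogenesis genes, 1 was lower and 0 were higher, and this was Rrp9, which binds the small nucleolar RNA U3. Its values were 0.01, −0.20 and −0.24 in LETO against −0.65, −0.70 and −0.83 in OLETF. Rrp9 fell by 0.58 (adjusted p = 0.0362 by limma). With slide as a block its adjusted p was 0.426, without a filter on dim probes 0.121 and with age as a covariate 0.0542, and it was above 0.05 without any 1 array other than LETO 1. Of 19 genes of S6 kinase and mTORC1 signalling, 1 was lower and 0 were higher. This was Depdc6, known as Deptor, an inhibitor of the mTOR kinase, which read −1.68, −1.68 and −2.01 in LETO and −2.61, −2.88 and −2.67 in OLETF. Depdc6 fell by 0.93 (adjusted p = 0.0132 by limma). The call was lost with slide as a block (0.227), without a filter on dim probes (0.0585) and without LETO 2, OLETF 2 or OLETF 3. Of 69 mitochondrial ribosomal proteins, 1 was higher and 0 were lower, 30 were negative and the median was 0.02. The values of Mrpl18, a protein of the large mitochondrial subunit, were 2.43, 2.92 and 2.86 in LETO against 3.69, 3.57 and 3.67 in OLETF. It rose by 0.91 (adjusted p = 0.0212 by limma). This call was lost with slide as a block (0.219), without a filter on dim probes (0.0832) and without LETO 3 or any OLETF array.

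**Figure D4:**
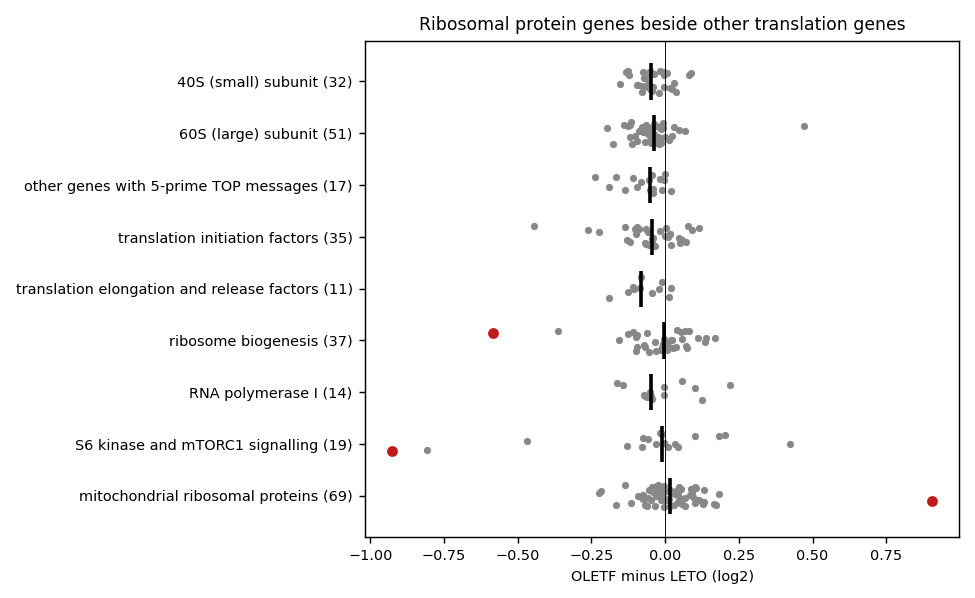
Difference of OLETF minus LETO on the log2 scale (horizontal axis) for each gene of the small subunit (40S), the large subunit (60S) and 7 other lists of translation genes, with the number of genes tested in brackets, the median of each list as a black bar and genes with an adjusted p below 0.05 in red. The 83 ribosomal protein genes lie within 0.20 of 0 except Rpl8 at 0.47, and the red points are Rrp9, Depdc6 and Mrpl18.

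Of the 149 member probes 147 were tested, and 146 were well above background on all 6 arrays. Rps19bp1 was not tested because its probe was not well above background on all arrays of either strain. The other probe left out was the third probe of Rpl28. A single probe represented 39 of the 86 names, and up to 4 represented the others. The mean signal lay above the array's 75th percentile for 82 of 83 ribosomal protein genes, the exception being Rpl15 at −2.23.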

How the data were processed

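RNA was measured on 6 Agilent 1-colour arrays. The authors deposited scanner files whose processed signal is a linear intensity, background-subtracted per the file headers. These headers give Feature Extraction 10.7.3.1 as the software, but version 9.1 stands in the submitters' processing notes. The deposited value table holds the same intensity divided by a constant per array, with column medians between 0.154 and 0.163. Its scale is linear and no centring was found.

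Control spots and spots with an outlier flag (260 to 356 per array, 7 of 1002 member values) were left out, spots of a probe were averaged as log2, and the array's 75th percentile over probes was subtracted. A probe was tested if well above background on all 3 arrays of a strain. The tested probe with the highest mean stood for its gene. The strains were compared in R 4.3.3 by limma 3.58.1 (lmFit, eBayes, Benjamini-Hochberg over 18816 genes or 21484 probes), and the script was tested on simulated data. Version 1.17.8 of data.table read the files, and figures used Python 3.11.15, pandas 2.3.3, numpy 2.4.6 and matplotlib 3.10.9. Precision is limited by the number of arrays.

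The members and lists were chosen with earlier results of these data known. Named are all called members, the 5 highest and 5 lowest differences, pseudogene names, 19 genes whatever their values, and up to 3 called or 2 uncalled genes per other list. Of those 19, Rps27l was not matched to a probe name and 1 is not reported here. Groups and replicate numbers follow the titles, although the source name of LETO 2 reads replicate 1. The replicate numbers were not used to pair the rats in the main fit. Deviations of same-numbered arrays correlated at −0.09, −0.14 and −0.01, which cannot show whether those samples were handled together. Probe positions are those of rn4 in the files, and promoter sequences are RefSeq's (GRCr8). Of the 86 names 77 were matched to RefSeq by accession, 75 with the same symbol. Rpl37 is now Rpl37l1 there and Rpl36al is Rpl36al1, and the files' names were kept. The alternatives were other scalings, background correction, filters, probe rules, moderation, array weights, a replicate block, age, slide and leaving out each array.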

Additional observations from a re-analysis of the deposited data

How the results depend on the processing

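The count of ribosomal protein genes higher in OLETF was 1 instead of 0, in each case Rpl8, with quantile normalization, normexp followed by quantile normalization, trended and robust moderation and array quality weights. The count lower in OLETF was 1 instead of 0, in each case Rps16, with the mean of all probes, where Rps16 differed by −0.77 (adjusted p = 0.00508 by limma), and with every probe on its own. Both counts were 0 without any 1 array. The median difference of the family lay between −0.15 and 0.01 without single arrays. The median of the pseudogene names, −1.84, is the midpoint of −3.73 for Rpl27-ps1 and 0.05 for Rps2-ps7 and describes neither. Its size rests on the OLETF values of Rpl27-ps1, which are only a bound. This median was −0.60 with normexp and quantile normalization and −1.53 with slide as a block. It was 0.049 when a probe had to be above background on all 6 arrays, which leaves out Rpl27-ps1. It lay between −2.00 and −1.73 without single arrays.

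With the replicate block 0 members were higher and 0 lower, the family median stayed at −0.05, and Rrp9 (adjusted p = 0.0756) and Mrpl18 (0.0607) lost their call. Calls over all genes, 283 higher and 197 lower, were 166 and 135 with that block, 52 and 53 with slide as a block, 875 and 825 with array quality weights and 149 and 91 without a filter on dim probes. Without single arrays they lay between 110 and 374 higher and between 87 and 241 lower. Percentiles over spots, chosen after seeing the data, left the member counts at 0. Signal over background limits Rpl27-ps1 in OLETF and Rps19bp1 in both strains.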
